A study of Mus musculus with 6 samples.

Results

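The genes described here encode the nuclear pore and the carriers that move through it. They were chosen by symbol from the protein-coding genes of GENCODE vM1, the mouse annotation whose gene identifiers the count files use. The rule uses no measured value, but the choice was made with earlier results of these data known. The rule took symbols that begin with Nup or Ipo and a digit, with Kpna, Kpnb or Xpo, and added Ran, Rcc1, Rangap1, Ranbp1, Ranbp2, Tpr, Pom121, Ndc1, Aaas and Cse1l. It found 51 gene entries with 50 distinct symbols, among 22337 protein-coding genes and 37991 genes counted in all. Ndc1 was not listed under that symbol in this annotation, where the gene is called Tmem48, and it is described below with the related genes. Of the 51 entries, 49 passed the filter on low counts. The other 2, Nup62cl and Kpna7, had at most 5 counts in any library and were not tested.

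RNA-seq was performed on pre-B cells of C57BL/6 mice, sorted for high B220 and low IgM and IgD (for malignant cells the methods give B220 positive, IgM negative and IgD negative), to follow gene expression from wild type cells through the premalignant stage to lymphoma. Each of the 3 stages had 2 libraries, which the methods call biological replicate experiments. Wild type mice were 4 to 6 weeks old, as were the premalignant mice, which were heterozygous for the Eμ-Myc transgene, a Myc gene under the immunoglobulin heavy chain enhancer that is active in the B lineage. Malignant cells came from tumor-bearing Eμ-Myc heterozygotes of 10 to 20 weeks, so that age and malignancy cannot be told apart. The mice behind the wild type and premalignant stages were all female and those behind the malignant stage of either sex, so that sex may differ with malignancy as well.

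The libraries held 30031100 to 53453055 counts each. Levels are given as CPM, counts per 1000000 of the library size after TMM normalization, so that 3 counts correspond to 0.0526 to 0.108 CPM. The TMM factors were 1.12 and 1.13 in wild type, 0.98 and 0.96 in premalignant and 0.90 and 0.93 in malignant libraries. The levels are thus relative values, neither plain shares of the counts in a library nor amounts per cell. The stages were compared with edgeR's quasi-likelihood test on the counts of all 6 libraries, and a gene was called when its false discovery rate (FDR, Benjamini-Hochberg over 16683 genes) was at most 0.1 and its log2 fold change at least 0.5 in either direction, the thresholds used in the study. The error printed after a log2 fold change is its standard error. The comparisons share libraries and are therefore not independent of each other. Myc stood at 33.8 and 41.4 CPM in wild type, 1164 and 1155 in premalignant and 1732 and 1578 in malignant libraries, and was thus high in every library labeled as Eμ-Myc.

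Markers of other cells and of cell division also moved between the stages. All 10 B lineage markers examined were detected, with a summed level of 8164 to 8876 CPM in wild type, 4513 to 4556 in premalignant and 3989 to 4800 CPM in malignant libraries. The 9 myeloid markers summed to 798 to 1724, 243 to 258 and 60.1 to 119 CPM in the same order, the 7 erythroid markers to 299 to 1167, 70.2 to 158 and 59.3 to 67.9 CPM, and the 5 NK markers to 56.6 to 150, 2.71 to 7.55 and 3.58 to 4.59 CPM. The 9 T cell markers were at 177 to 203, 66.9 to 73.4 and 205 to 213 CPM, with Cd2 the highest (30.4 to 199.8 CPM over the libraries). In malignant against wild type cells 6 of these 9 were called lower and 1 higher, where 24.3% and 24.9% of all tested genes were. The 5 stromal and endothelial markers were at 207 to 259, 88.4 to 107 and 66.9 to 138 CPM. The 4 megakaryocyte ones were at 1.42 to 4.13, 0.819 to 1.11 and 0.669 to 0.681 CPM. No marker of these lists was at 0 in every library. The 12 genes of dividing cells summed to 3346 to 5122, 6538 to 6979 and 4191 to 5379 CPM, and 8 of them were called higher in premalignant than in wild type cells, against 3 in malignant cells. The part of these shifts in the results below was not tested, and in bulk RNA fewer cells of a type and less RNA per cell cannot be told apart.

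The nuclear pore is a ring of many copies of many kinds of protein, the nucleoporins, set where the inner and outer nuclear membranes join. Small molecules diffuse through it, whereas most proteins and some RNAs pass bound to a carrier of the importin β family. That family includes the importins that bring cargo in and the exportins that take it out. The small GTPase Ran gives this traffic its direction: it is loaded with GTP on chromatin by Rcc1 and made to hydrolyze it in the cytoplasm by Rangap1, so that importins release cargo inside the nucleus and exportins release it outside.

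Most of the nuclear pore and transport genes were expressed at a higher level in Eμ-Myc cells, and most of that difference was already present at the premalignant stage. Between wild type and premalignant cells, 35 of the 49 tested genes rose, against a background of 19% of all tested genes called higher, and 1 fell, against 20.3% called lower. The median log2 fold change was 0.89 for the members and -0.08 over all genes. In malignant against wild type cells 37 rose, with a background of 24.9%, and 1 fell, with a background of 24.3%, and the medians were 0.92 for the members and -0.02 for all genes. Of these 37 genes, 33 were also called higher at the premalignant stage. That overlap was not counted over all genes and so has no background.

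**Figure D1:**
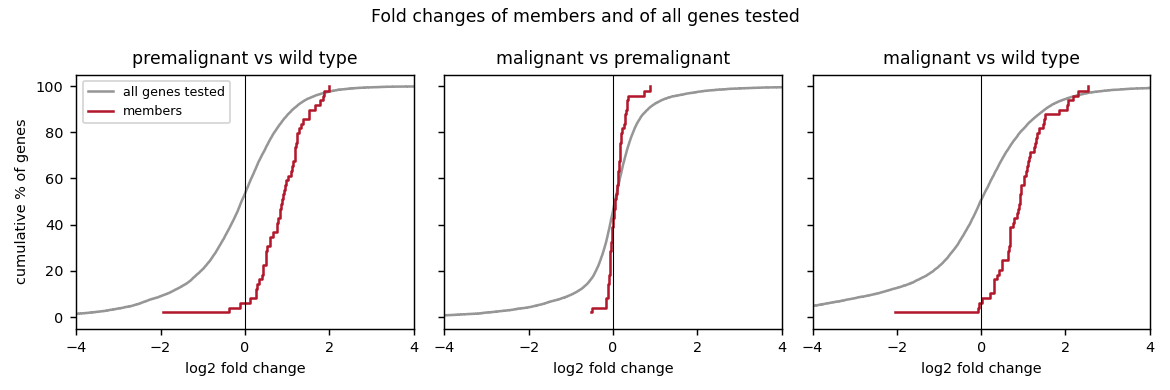
Cumulative percent of genes (vertical axis) against log2 fold change (horizontal axis) for the 49 tested members in red and all 16683 tested genes in gray, with 1 panel per comparison. The red curve lies right of the gray one over most of its length in premalignant and in malignant against wild type cells (medians 0.89 and 0.92 for members, -0.08 and -0.02 for all genes), and in malignant against premalignant cells both cross near 0 (medians 0.05 and 0.04).

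Few differences between malignant and premalignant cells passed the test. Xpo4 was the 1 member called higher, where 3.73% of all tested genes were, and no member was called lower, where 2.45% of all tested genes were. At an unadjusted edgeR p under 0.05 the counts were 2 higher (Xpo4 and Xpot) and 0 lower. DESeq2, at the thresholds for a call, called 2 higher and 0 lower. The median log2 fold change was 0.05 for the members and 0.04 for all genes. The genes that rose in malignant over wild type cells had reached between 47.6% and 123% of their log2 change at the premalignant stage. The median was 92.7%, and 30 of the 37 had reached at least 80%. These shares were not computed over all genes and so have no background. Both changes are also measured from the same wild type libraries. Ranbp2, Xpo7, Kpna1 and Ipo13 were called in malignant and not in premalignant cells when each was compared with wild type, and Kpna2 and Nup98 the other way around. The malignant call of Ipo13, at log2 0.50, was lost under the 3 other scalings tried (log2 0.21 to 0.49) and without wild type replicate 1, malignant replicate 2 or either premalignant library. For none of these 6 genes did the test of malignant against premalignant cells itself pass the threshold.

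Libraries within a stage differed by a median of 1.22-fold over the members in wild type and in malignant cells and by 1.04-fold in premalignant cells. The differences had a side: 38 of the 49 members were higher in wild type replicate 1 than in replicate 2, and 34 were higher in malignant replicate 2 than in replicate 1, where 50.3% and 50.4% of all tested genes were. Even so, both premalignant libraries lay above both wild type libraries for 45 members, where 36.2% of all tested genes did so, and both malignant libraries lay above both wild type libraries for 42 members, where 35.3% did.

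The number of calls depended on single libraries. Without premalignant replicate 1 the members called higher in premalignant cells fell from 35 to 23, and without premalignant replicate 2 to 22, while all genes called in either direction fell from 6563 to 2502 and 2093. The members that lost the premalignant call without at least 1 of these libraries, at an edgeR FDR of 0.101 to 0.249, numbered 15: Rangap1, Kpna2, Kpna3, Xpo1, Xpo6, Cse1l, Nup37, Nup98, Nup153, Nup160, Nup205, Tpr, Pom121 and both Ipo11 entries. Scaling by total counts alone, which shifts the median of all genes by -0.21 in premalignant and -0.30 in malignant cells against wild type on the log2 scale, left 29 and 27 members called higher. Under that scaling 33.6% and 35.5% of all calls in these 2 comparisons were higher, against 48.3% and 50.6% with TMM, and in malignant against premalignant cells 50.6% were, against 60.4% with TMM and 49.7% with upper-quartile scaling.

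**Figure D2:**
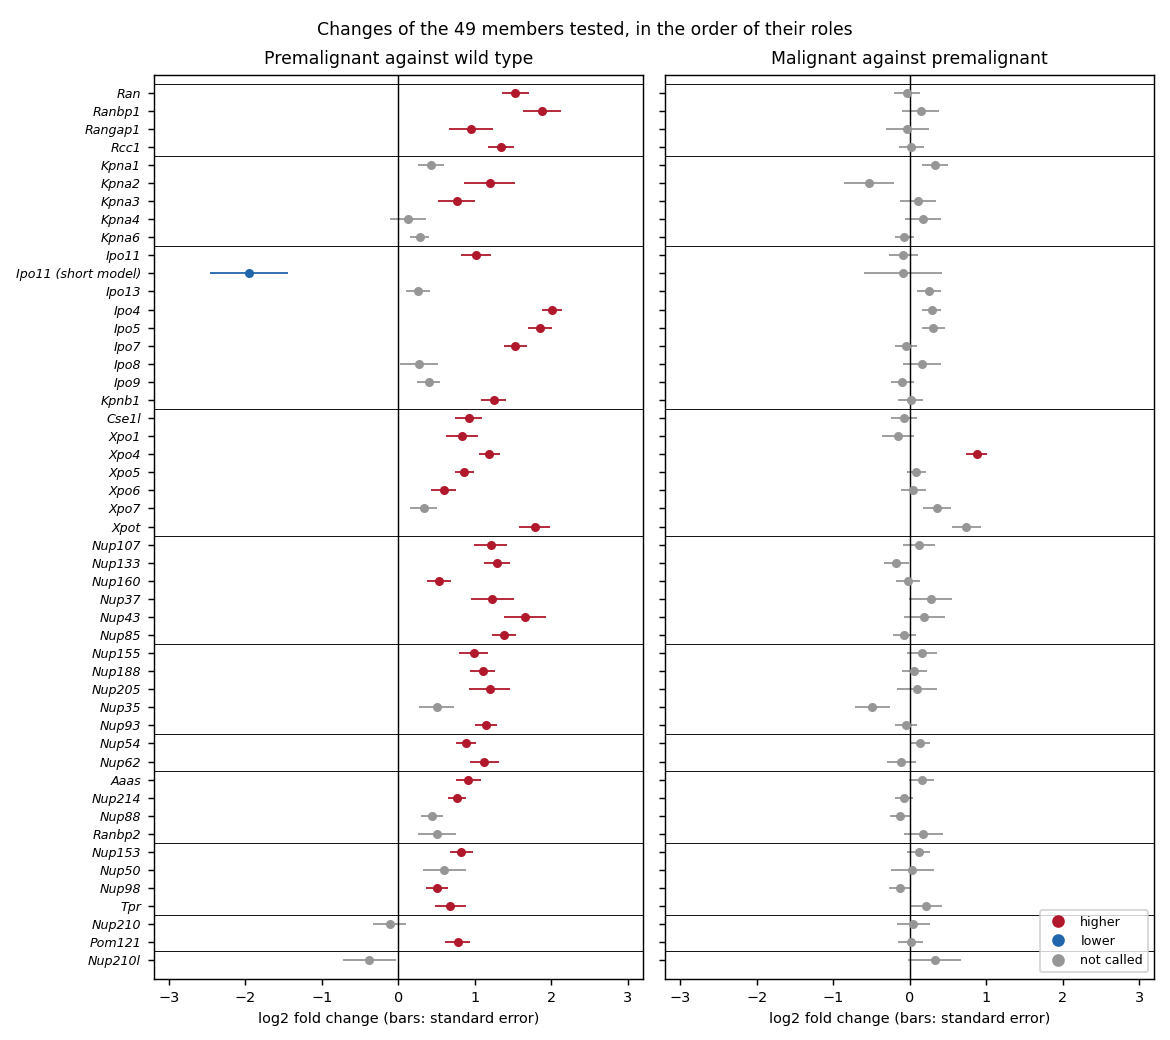
Log2 fold change of each tested member (points) with its standard error (bars), premalignant against wild type on the left and malignant against premalignant on the right, with lines between the role groups. Red points were called higher (35 on the left, Xpo4 alone on the right), the blue point lower (the short Ipo11 entry, on the left), and gray points were not called.

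The start regions of these genes were examined for CACGTG, the palindromic E box that MYC bound to MAX recognizes and that reads the same on both strands. RefSeq windows of build GRCm38.p6, from 250 bases before to 50 bases after the annotated start, were matched for 40 of the 50 symbols. The motif was present in 8 of these 40 genes (20%), compared with 11.4% of the 10066 tested genes that had a window and 8.09% of all 27025 genes with one. The 8 were Ran, Ranbp2, Ipo4, Ipo7, Xpot, Nup54, Nup93 and Nup188, and each of them rose in malignant over wild type cells. It was found in 8 of the 30 genes with a window that were called higher and in 0 of the 8 that were tested and not called. How often the motif occurs among all genes called and not called was not counted. This split therefore has no background, and it was not tested. Most of the genes called higher that had a window lack the motif, among them Ipo5. That gene rose 4.49-fold in malignant over wild type cells and is not printed below. The call of Ranbp2 was also lost in several settings given below. These are matches of letters in a window, and binding was not measured here. The 250 bases before the start are printed for 4 genes with the motif and different roles, Ran (plus strand, chr5:129019906-129020155), Ipo7 (plus strand, chr7:110018065-110018314), Xpot (minus strand, chr10:121626333-121626582) and Nup188 (plus strand, chr2:30286166-30286415), and for Nup210 (minus strand, chr6:91116827-91117076), the member with the highest level per length in wild type cells, which was not called and in whose window these letters are not present. Each reads 5′ to 3′ on the strand of the gene and ends at the base before the start, and capitals mark CACGTG.
Ran: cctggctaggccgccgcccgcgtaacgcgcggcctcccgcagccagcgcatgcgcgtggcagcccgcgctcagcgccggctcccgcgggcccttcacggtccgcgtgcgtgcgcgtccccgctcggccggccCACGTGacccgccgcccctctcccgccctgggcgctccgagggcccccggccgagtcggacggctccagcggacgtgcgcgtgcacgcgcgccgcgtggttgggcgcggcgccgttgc
Ipo7: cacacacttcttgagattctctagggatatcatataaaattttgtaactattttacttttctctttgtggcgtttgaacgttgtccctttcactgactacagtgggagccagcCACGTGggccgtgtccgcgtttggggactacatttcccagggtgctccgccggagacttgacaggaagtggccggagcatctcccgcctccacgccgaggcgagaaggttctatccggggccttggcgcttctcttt
Xpot: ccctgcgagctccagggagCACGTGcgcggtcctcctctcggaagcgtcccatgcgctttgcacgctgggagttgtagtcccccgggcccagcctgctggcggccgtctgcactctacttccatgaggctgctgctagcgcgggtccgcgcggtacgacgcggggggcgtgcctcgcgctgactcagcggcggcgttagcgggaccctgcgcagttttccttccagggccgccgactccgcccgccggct
Nup188: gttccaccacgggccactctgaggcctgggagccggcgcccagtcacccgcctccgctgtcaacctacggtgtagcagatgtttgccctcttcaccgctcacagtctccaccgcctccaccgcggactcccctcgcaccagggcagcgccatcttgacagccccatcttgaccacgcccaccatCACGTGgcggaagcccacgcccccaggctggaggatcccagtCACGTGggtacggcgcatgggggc
Nup210: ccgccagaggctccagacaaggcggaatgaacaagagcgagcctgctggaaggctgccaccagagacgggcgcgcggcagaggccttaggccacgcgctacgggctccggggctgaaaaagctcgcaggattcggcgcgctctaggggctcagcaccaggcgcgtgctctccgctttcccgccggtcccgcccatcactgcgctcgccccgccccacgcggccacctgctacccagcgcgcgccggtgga
The first base of the motif lies 118 bases before the start in Ran, 137 in Ipo7, 231 in Xpot, and 66 and 24 in Nup188, which holds it 2 times.

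All 4 genes of the Ran cycle rose in premalignant and in malignant cells, and none was called between these stages. Ran itself was at 256 and 193 CPM in wild type, 653 and 640.2 in premalignant, and 657 and 607 in malignant cells. Every Eμ-Myc library thus lay well above both wild type libraries, and the premalignant and malignant values overlapped. The log2 fold change was 1.53 ± 0.18 in premalignant (edgeR FDR 0.0033) and 1.49 ± 0.18 in malignant cells (edgeR FDR 0.0018), and malignant less premalignant was -0.03, with a 95% interval from -0.45 to 0.39. Of the 50-base windows in the exons of Ran, 45.2% occur elsewhere in the genome too, so part of its reads could not be placed uniquely.

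Ranbp1, which binds Ran-GTP in the cytoplasm and helps Rangap1 to act on it, showed the largest change of the 4. Its levels were 107 and 86.2 CPM in wild type, 349 and 362 in premalignant, and 303 and 484 in malignant cells. The malignant libraries fell on either side of the premalignant ones. Against wild type it rose 3.68-fold in premalignant (log2 1.88 ± 0.25, edgeR FDR 0.00452) and 4.07-fold in malignant cells (log2 2.03 ± 0.25, edgeR FDR 0.00205).

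Rcc1, the exchange factor that loads Ran with GTP, was at 111 and 87.1 CPM in wild type, 254 and 248 in premalignant, and 272 and 237 in malignant cells, with log2 fold changes of 1.34 ± 0.17 and 1.36 ± 0.17 against wild type (edgeR FDR 0.00374 and 0.00194). Rangap1, which triggers the hydrolysis of GTP on Ran, was at 184 and 148 CPM in wild type, 324 and 318 in premalignant, and 223 and 406 in malignant cells. Its 2 malignant libraries were farther apart, as a ratio, than any other pair in this group. Its calls, at log2 0.95 ± 0.29 in premalignant (edgeR FDR 0.0483) and 0.92 ± 0.29 in malignant cells (edgeR FDR 0.0411), were the least secure of the 4: the premalignant call was lost without any 1 of the wild type and premalignant libraries (edgeR FDR 0.119 to 0.238), and the malignant call without wild type replicate 1 or 2 (edgeR FDR 0.103 and 0.205) or malignant replicate 2 (log2 0.45).

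The importin α proteins, adapters that bind the classical nuclear localization signal of a cargo and hand it to importin β1, gave few calls. Of the 5 tested, 2 rose in premalignant cells (Kpna2 and Kpna3) and 2 in malignant cells (Kpna1 and Kpna3). Kpna3 was at 110.2 and 67.1 CPM in wild type, 155 and 146 in premalignant, and 155 and 169.7 in malignant cells, with log2 fold changes of 0.76 ± 0.24 and 0.87 ± 0.24 (edgeR FDR 0.054 and 0.0276). Kpna1 was at 88.1 and 70.0 CPM, 104 and 109, and 121 and 147, a log2 fold change of 0.43 ± 0.17 in premalignant (edgeR FDR 0.102) and 0.76 ± 0.17 in malignant cells (edgeR FDR 0.0146). Its malignant libraries were above its premalignant ones, with a log2 difference of 0.33 whose 95% interval ran from -0.09 to 0.74. Kpna6 stayed within 72.7 to 91.8 CPM in all libraries and was not called, at log2 0.28 ± 0.12 in premalignant and 0.21 ± 0.12 in malignant cells. Kpna4 was not called either and its stages overlapped, with 156 and 117 CPM in wild type against 156 and 141 in premalignant cells, although its malignant increase over wild type was called without malignant replicate 1 (log2 0.56, edgeR FDR 0.0568).

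Kpna2, the importin α most abundant in many dividing cells, was singled out after its values were seen. It was at 250.3 and 119.9 CPM in wild type, 423 and 425 in premalignant, and 268 and 318 in malignant cells. It was highest in the premalignant libraries, which did not overlap with those of either other stage, and its 2 wild type libraries were far apart. It rose in premalignant cells (log2 1.19 ± 0.33, edgeR FDR 0.0388), whereas neither the malignant level against wild type (log2 0.66 ± 0.33, edgeR FDR 0.151) nor malignant against premalignant (log2 -0.53 ± 0.33, edgeR FDR 0.438) passed the threshold. Without wild type replicate 1 the malignant level was called higher than wild type (log2 1.29, edgeR FDR 0.0144). The summed level of the 12 genes of dividing cells moved in the same way, with 5122 and 3346 CPM in wild type, 6538 and 6979 in premalignant, and 4191 and 5379 in malignant cells, and its part in the Kpna2 values was not tested. Copies elsewhere in the genome cover 63.4% of the exonic windows of Kpna2, so its level is uncertain. Per length of transcript Kpna2 made up 51.7% of the summed importin α level in wild type cells, which went to 65.2% at the premalignant stage and 54.2% at malignancy.

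The importin β carriers, which bind cargo directly or through importin α and dock on the nucleoporins, included the largest premalignant increase. Of the 9 entries tested, 5 rose in premalignant and 6 in malignant cells, and the short Ipo11 entry fell in both. Ipo4, a carrier of histones and ribosomal proteins, was at 20.5 and 21.5 CPM in wild type, 85.4 and 83.3 in premalignant, and 107 and 98.4 in malignant cells. The 3 stages did not overlap, and the wild type libraries agreed closely. Its log2 fold change was 2.01 ± 0.13 in premalignant (edgeR FDR 0.00147) and 2.29 ± 0.13 in malignant cells (edgeR FDR 0.00054), with 0.29 between these stages (95% interval -0.02 to 0.60). The exons of Ipo4 overlap those of the neighboring Tm9sf1 over 12.8% of their length.

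Ipo5, which carries ribosomal proteins and core histones, stood at 200.3 and 167 CPM in wild type, 646 and 688 in premalignant, and 860.0 and 793 in malignant cells. It too increased from stage to stage without overlap. The gene rose 3.63-fold in premalignant (log2 1.86 ± 0.16, edgeR FDR 0.00186) and 4.49-fold in malignant cells (log2 2.17 ± 0.16, edgeR FDR 0.000637), and the step between them, log2 0.31 with a 95% interval from -0.06 to 0.68, did not pass the threshold. Within this family, per length, Ipo5 went from 21.6% of the summed level in wild type cells to 30.9% at the premalignant stage and 35.5% at malignancy.

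Kpnb1, importin β1 itself, and Ipo7 were named after their values were seen. Kpnb1 was at 426 and 341 CPM in wild type, 905 and 910.0 in premalignant, and 914 and 915 in malignant cells, and Ipo7 was at 129.7 and 106, 351 and 329.7, and 337 and 319.8 CPM. Their premalignant and malignant levels were close, at log2 1.24 ± 0.16 and 1.26 ± 0.16 for Kpnb1 and 1.53 ± 0.15 and 1.48 ± 0.15 for Ipo7 against wild type. Per length, Kpnb1 was 31.3% of the family in wild type cells and 27.4% in malignant cells, and Ipo5 lay above it from the premalignant stage on. Ipo9, another carrier of histones and ribosomal proteins, was not called: at 132 and 135 CPM in wild type, 178 and 174 in premalignant, and 184 and 146 in malignant cells, its log2 fold changes of 0.40 ± 0.15 and 0.30 ± 0.15 stayed short of the thresholds.

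Ipo11 was listed as 2 entries on the minus strand of chromosome 13, build mm9, a full one of 4400 exonic bases (ENSMUSG00000042590, chr13:107584519-107726995) and a short one of 1617 exonic bases inside its span (ENSMUSG00000078933, chr13:107623940-107637347). The full entry, a carrier of ubiquitin-conjugating enzymes, rose in premalignant cells (log2 1.01 ± 0.19) and in malignant cells (log2 0.93 ± 0.19). The short entry was scarce and moved the other way: it was at 2.05 and 4.73 CPM in wild type, 0.781 and 0.964 in premalignant, and 0.711 and 0.932 in malignant cells, a log2 fold change of -1.95 ± 0.51 and -2.04 ± 0.51 (edgeR FDR 0.032 and 0.0208). Of its exonic bases, 13.2% are shared with the full entry. Its calls depended on wild type replicate 2, without which the log2 fold changes were -1.23 (edgeR FDR 0.174) and -1.32 (edgeR FDR 0.114).

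**Figure D3:**
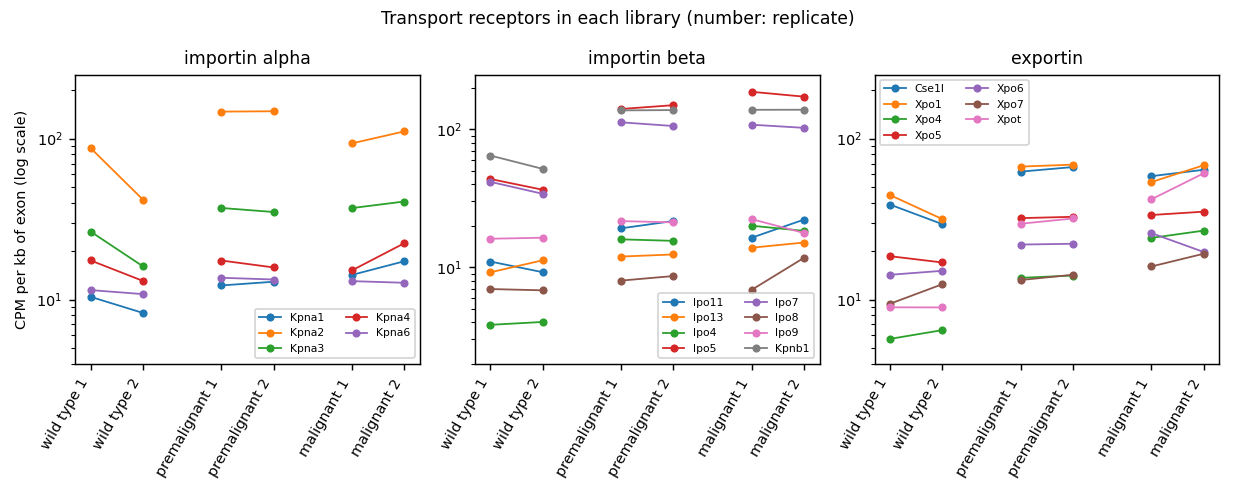
Level per length, in CPM per kilobase of exon on a log axis, of the importin α, importin β and exportin genes in each of the 6 libraries, with lines joining the 2 replicates of a stage and without Kpna7 and the short Ipo11 entry. Kpna2 is highest in the premalignant libraries, Ipo5 lies below Kpnb1 in wild type and above it in all 4 Eμ-Myc libraries, and Xpot and Xpo4 climb from stage to stage.

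Exportins bind cargo together with Ran-GTP and leave the nucleus, and all 7 rose in malignant cells, 6 of them already in premalignant cells. The increase was largest for Xpot, which exports transfer RNA. Xpot was at 53.6 and 53.5 CPM in wild type, 177 and 191 in premalignant, and 251 and 365 in malignant cells. The stages followed each other without overlap. Its log2 fold change was 1.78 ± 0.20 in premalignant (edgeR FDR 0.00296) and 2.52 ± 0.20 in malignant cells (edgeR FDR 0.000744), the latter the largest of any member. Malignant less premalignant was 0.74 (95% interval 0.27 to 1.21, edgeR FDR 0.113), which was not called, although it passed with DESeq2 (log2 0.72, adjusted p 0.0257) and, with edgeR, without malignant replicate 1 (log2 0.98, FDR 0.00856). Copies elsewhere in the genome cover 22.7% of its exonic windows. Its share of the summed exportin level per length grew from 6.88% in wild type cells to 12.5% at the premalignant stage and 18.6% at malignancy.

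Xpo4, which exports the translation factor eIF5A among other cargo, was the member with a further increase at malignancy that passed the test. It was at 41.4 and 46.9 CPM in wild type, 99.1 and 102 in premalignant, and 175 and 195 in malignant cells. Each stage lay above the one before, and the replicates of each were close. The log2 fold change was 1.19 ± 0.14 in premalignant against wild type (edgeR FDR 0.00314) and 0.88 ± 0.14 in malignant against premalignant cells (edgeR FDR 0.0348). Without premalignant replicate 1 or 2 the second of these steps was 0.85 and 0.90 and was not called. With 1 premalignant library left, the loss of calls between these stages was not particular to Xpo4.

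For the other exportins no step between premalignant and malignant cells was called. Xpo6, which exports actin with profilin, was at 138 and 146 CPM in wild type, 213 and 215 in premalignant, and 251 and 191 in malignant cells, with log2 fold changes of 0.59 ± 0.16 and 0.64 ± 0.16 (edgeR FDR 0.0377 and 0.0219). The malignant libraries lay on either side of the premalignant ones. The premalignant call was lost without any 1 of the wild type and premalignant libraries, at an edgeR FDR of 0.132 to 0.204, and its malignant call without wild type replicate 1 (edgeR FDR 0.1003) or malignant replicate 1 (log2 0.44). Among those not singled out by rule, Xpo1, the exporter of proteins with a leucine-rich signal, rose by log2 0.84 ± 0.21 in premalignant cells and stood 0.68 ± 0.21 above wild type in malignant cells, and Cse1l, which returns importin α to the cytoplasm, rose by 0.92 ± 0.17 and 0.84 ± 0.17. Xpo5, the exporter of precursor microRNAs, rose by 0.86 ± 0.12 and 0.95 ± 0.12. Xpo7 was called in malignant cells (log2 0.69 ± 0.18) and not in premalignant cells (0.33 ± 0.18). The malignant calls of Xpo1 and Xpo7 were lost under total-count scaling (log2 0.39 and 0.40), that of Xpo1 also without wild type replicate 2 (log2 0.46) and that of Xpo7 without wild type replicate 1 (edgeR FDR 0.103), and the premalignant call of Xpo1 also without wild type replicate 2 (edgeR FDR 0.142).

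From the outer ring of the pore, a Y-shaped scaffold on each face of the membrane, the symbol rule took 6 genes. All 6 were called higher in both comparisons with wild type. Pore subunits with other names are not counted here and are described with the related genes. Among those, Sec13 was not called in premalignant cells (log2 0.495 ± 0.15). Nup43 was at 13.0 and 8.95 CPM in wild type, 36.0 and 33.4 in premalignant, and 31.8 and 47.5 in malignant cells, with log2 fold changes of 1.66 ± 0.27 and 1.85 ± 0.28 (edgeR FDR 0.00832 and 0.00373). Nup37 was at 23.7 and 16.8 CPM, 45.3 and 49.8, and 43.7 and 71.4 in the same order, at 1.23 ± 0.28 and 1.51 ± 0.28 (edgeR FDR 0.0221 and 0.00802). For both subunits the malignant libraries spanned the premalignant ones. Nup160 changed least, from 134 and 108 CPM in wild type to 175 and 175 in premalignant and 161 and 184 in malignant cells. Its log2 fold changes of 0.53 ± 0.16 and 0.51 ± 0.16 were close to the minimum for a call. The malignant call was lost without wild type replicate 2 (log2 0.36), malignant replicate 2 (log2 0.43) or either premalignant library (log2 0.51). It was also lost with DESeq2 (log2 0.497) and under upper-quartile, RLE and total-count scaling (log2 0.34, 0.495 and 0.21). The filter of at least 10 counts in every library (log2 0.42) and the fit of only the 2 stages compared lost it too. The premalignant call was lost under upper-quartile and total-count scaling (log2 0.45 and 0.32), with the 10-count filter (log2 0.47) and without wild type replicate 2 (log2 0.39). Nup85, Nup107 and Nup133 lay between, with log2 fold changes of 1.38 ± 0.15, 1.21 ± 0.21 and 1.29 ± 0.17 in premalignant cells.

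In the inner ring, the scaffold that lines the membrane at the middle of the pore, 4 of 5 members rose in premalignant and in malignant cells. Nup205 was at 194 and 157 CPM in wild type, 385 and 417 in premalignant, and 316 and 539.7 in malignant cells, with log2 fold changes of 1.19 ± 0.27 and 1.29 ± 0.27 (edgeR FDR 0.0207 and 0.0113). Nup188, its close relative, was at 85.7 and 88.4 CPM, 183 and 191, and 168 and 222, with 1.10 ± 0.16 and 1.16 ± 0.16 (edgeR FDR 0.0062 and 0.00317). The malignant libraries of both genes lay on either side of the premalignant ones. Nup35 was the member of the ring that was not called. It was at 15.8 and 13.6 CPM in wild type, 22.6 and 19.1 in premalignant, and 12.8 and 16.9 in malignant cells, a log2 difference of 0.01 between malignant and wild type cells with a 95% interval from -0.54 to 0.57. Without malignant replicate 2 its malignant level was called lower than the premalignant one (log2 -0.74, edgeR FDR 0.0612), and copies elsewhere cover 32.5% of its exonic windows. The same kind of copies cover 47.0% of those of Nup93, which rose by log2 1.14 ± 0.15 and 1.09 ± 0.15.

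Both nucleoporins that the symbol rule took from the central channel, which carry the phenylalanine-glycine repeats that carriers bind, rose. Pore subunits with other names are counted with the related genes here too. Nup62 was at 123 and 87.8 CPM in wild type, 223 and 237 in premalignant, and 198 and 227 in malignant cells (log2 1.13 ± 0.19 and 1.02 ± 0.19, edgeR FDR 0.00912 and 0.00787). Nup54 was at 40.7 and 37.3 CPM, 73.1 and 71.2, and 79.4 and 79.3 (log2 0.89 ± 0.13 and 1.03 ± 0.13, edgeR FDR 0.00579 and 0.00218), with copies over 31.5% of its exonic windows. Neither differed between malignant and premalignant cells by the test, with 95% intervals of -0.57 to 0.35 for Nup62 and -0.17 to 0.45 for Nup54.

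The proteins of the cytoplasmic face, where messenger RNA is released and importins enter, rose in part. Of the 4, 2 were called higher in premalignant and 3 in malignant cells. Aaas was at 45.7 and 41.2 CPM in wild type, 82.9 and 80.7 in premalignant, and 80.3 and 102 in malignant cells (log2 0.91 ± 0.16 and 1.07 ± 0.16, edgeR FDR 0.0105 and 0.00398). Nup214, a filament protein, was at 113 and 113 CPM, 188 and 195, and 183 and 179.9 (log2 0.77 ± 0.12 and 0.69 ± 0.12, edgeR FDR 0.00666 and 0.00568). Its partner Nup88 was at 113 and 107 CPM, 149.9 and 148, and 149 and 125, and its log2 fold changes of 0.44 ± 0.14 and 0.31 ± 0.14 were not called, although every Eμ-Myc library was above both wild type libraries. Ranbp2, which anchors sumoylated Rangap1 at the pore, was called in malignant and not in premalignant cells, at 0.68 ± 0.25 (edgeR FDR 0.0712), with malignant libraries of 359 and 555 CPM against 413 and 394 in premalignant and 330.1 and 239 in wild type cells. That call was lost without wild type replicate 2, malignant replicate 2 or either premalignant library (edgeR FDR 0.133 to 0.308), and without either malignant library Ranbp2 was called in premalignant cells (log2 0.51 and 0.56).

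On the nuclear side, where the basket filaments and the more mobile nucleoporins sit, 3 of 4 members rose in premalignant and 2 in malignant cells. Nup153 was at 188 and 152 CPM in wild type, 312 and 289 in premalignant, and 333 and 319 in malignant cells (log2 0.82 ± 0.15 and 0.94 ± 0.15, edgeR FDR 0.0117 and 0.00489). Tpr, the filament of the basket, was at 377 and 322 CPM, 539 and 578, and 762 and 537 (log2 0.68 ± 0.20 and 0.89 ± 0.20, edgeR FDR 0.0489 and 0.0151). Its malignant replicate 1 stood above every other library. Nup98 was at 94.9 and 80.2 CPM, 123 and 126, and 109 and 119, with log2 fold changes of 0.51 ± 0.14 (edgeR FDR 0.0385) in premalignant and 0.38 ± 0.14 in malignant cells. Nup50 was called in neither, at 0.60 ± 0.28 and 0.64 ± 0.28, but in premalignant cells without either malignant library (log2 0.61 and 0.66) and in malignant cells without malignant replicate 1 (log2 0.97).

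Of the 2 members by the rule that span the pore membrane, Pom121 rose and Nup210 did not pass the test. Tmem48, the membrane anchor described with the related genes, rose too (log2 1.21 ± 0.21 and 1.23 ± 0.21). Pom121 was at 109 and 99.6 CPM in wild type, 184 and 173 in premalignant, and 203 and 157 in malignant cells (log2 0.77 ± 0.16 and 0.79 ± 0.16, edgeR FDR 0.0169 and 0.011), and shares 11.9% of its exonic bases with the neighboring Nsun5. Nup210 was at 759 and 871 CPM in wild type, 734 and 769 in premalignant, and 627 and 927 in malignant cells. Its stages overlapped, and the malignant level differed from wild type by a log2 of -0.07, with a 95% interval from -0.59 to 0.45 that leaves out the median change of the members. Nup210l, a relative of Nup210 known from testis, was at 7.69 and 9.12 CPM, 6.44 and 6.45, and 5.75 and 10.4 and was not called.

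**Figure D4:**
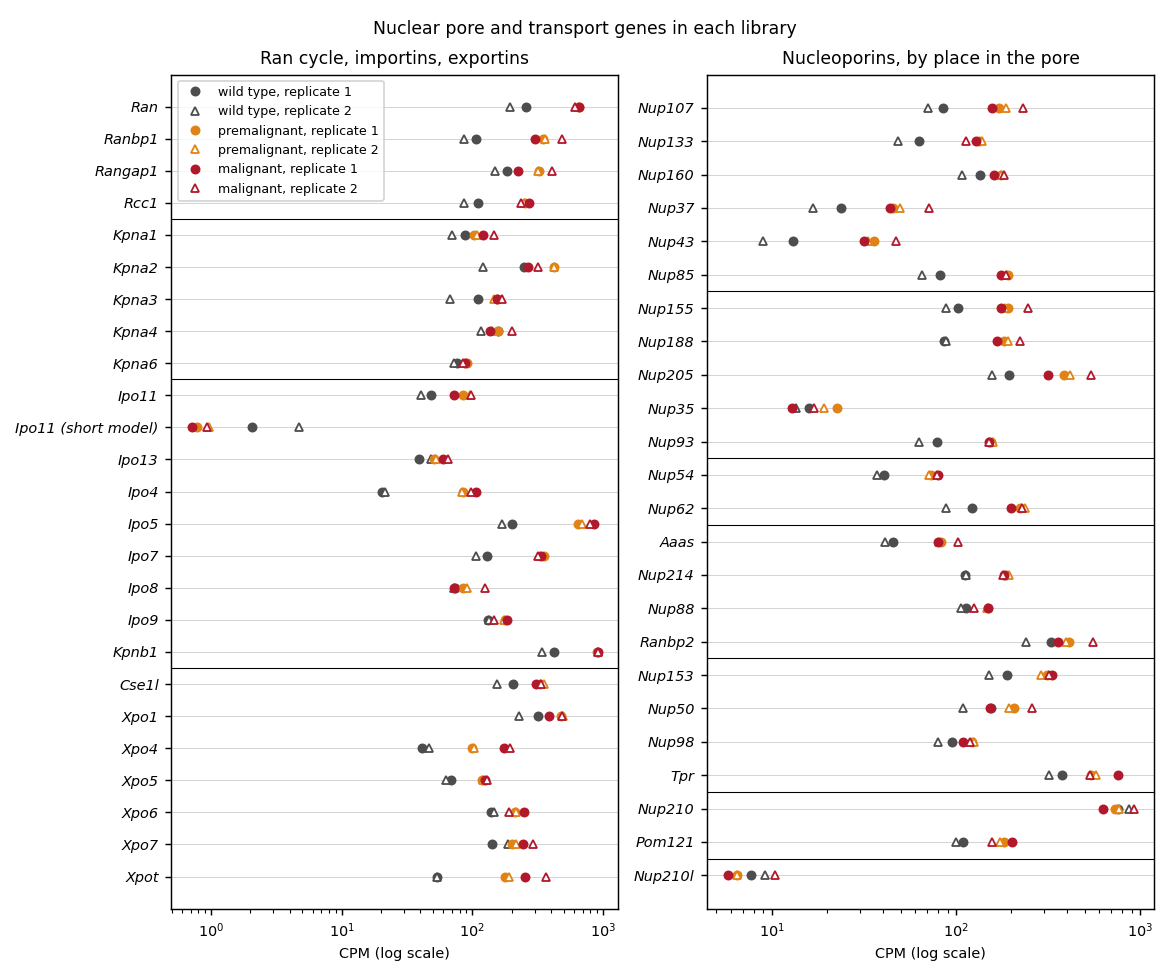
CPM of each tested member in every library on a log axis, transport factors on the left and nucleoporins on the right, with color for the stage, filled circles for replicate 1, open triangles for replicate 2 and lines between role groups. The gray wild type points lie left of the orange and red Eμ-Myc points for most genes, whereas the stages overlap for Nup210 and Kpna4 and the order is turned for the short Ipo11 entry.

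The relative order of the members changed with these differences. Compared per kilobase of exon, Nup210 was the highest of all members in wild type cells, at 99.2 CPM per kilobase, ahead of Ran at 84.9, although their libraries overlapped. In premalignant and malignant cells Ran was the highest, at 244 and 239 CPM per kilobase, Ranbp1 followed at 214 and 236, and Nup210, at 91.5 and 94.6, was at rank 8 in both. The Ran and Ranbp1 levels of malignant cells do not differ beyond the spread of their libraries. Xpot moved from rank 42 in wild type to 26 and 19, and Xpo4 from rank 44 to 40 and 30. Ranks of genes with copies elsewhere in the genome, Ran and Xpot included, carry the same uncertainty as their levels.

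Summed over all 51 entries, the members came to 6714 and 5771 CPM in wild type, 11442 and 11604 in premalignant, and 11332 and 12820 in malignant cells. All 4 Eμ-Myc libraries exceeded both wild type libraries. The sum of the malignant libraries was 1.93 times that of wild type, and that of the premalignant libraries 1.85 times. The TMM factors, highest in wild type, make both ratios larger than plain shares of the counts would. By role, the ratio of malignant to wild type was 2.72 for the Ran cycle, 2.57 for the importin β carriers, 2.26 for the inner ring, 2.14 for the outer ring, 2.03 for the central channel and 2.02 for the exportins. It was 1.75 for the basket and mobile nucleoporins, 1.57 for the cytoplasmic face and 1.50 for importin α. For the pore membrane group, which Nup210 dominates and which does not hold Tmem48, it was 1.04. For Nup210l and Nup62cl, kept as a group of their own, it was 0.969, and the premalignant ratio was 0.771.

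**Figure D5:**
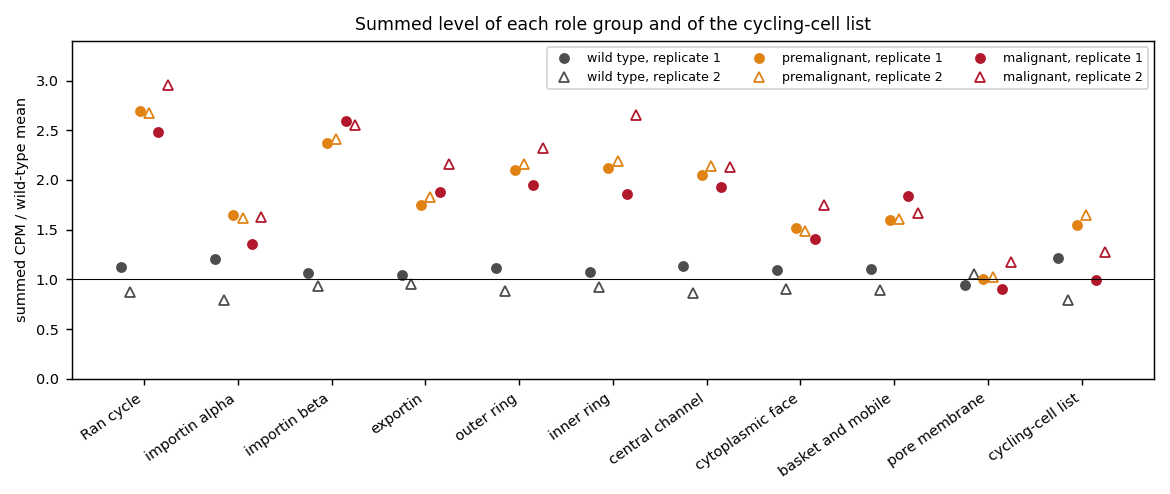
Summed CPM of each role group and of the 12 genes of dividing cells in each library, divided by the wild type mean of that group (line at 1), with color for the stage and symbol for the replicate. All 4 Eμ-Myc libraries lie above both wild type libraries in each role group shown but the pore membrane (Nup210l and Nup62cl are not drawn), while for the genes of dividing cells a malignant and a wild type library overlap.

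Genes that work with the pore but fall outside the symbol rule were read from a list of 36, of which 35 were in the annotation and 33 were tested. In premalignant cells 17 of them rose and 1 fell, and in malignant cells 17 rose and 2 fell, beside the backgrounds given above. Without premalignant replicate 1 or 2 or wild type replicate 2 the 17 higher calls in premalignant cells became 5, 3 and 8. Under total-count scaling 9 were called higher in premalignant and 11 in malignant cells, and with a minimum absolute log2 fold change of 1 the counts were 5 and 8. Of the 8 tested pore subunits with other names, 7 rose in malignant cells. Tmem48, the present Ndc1 and a membrane anchor of the pore, was at 52.5 and 35.4 CPM in wild type, 102 and 101 in premalignant, and 96.9 and 109 in malignant cells (log2 1.21 ± 0.21 and 1.23 ± 0.21, edgeR FDR 0.00939 and 0.00555). Ahctf1, which seeds pores on chromatin after mitosis, was at 147 and 132 CPM, 242 and 244, and 452 and 263 (malignant log2 1.36 ± 0.26, edgeR FDR 0.0081), where malignant replicate 1 was far above replicate 2. Nupl2 was at 6.55 and 7.45 CPM, 12.6 and 16.8, and 22.1 and 19.8, with log2 fold changes of 1.07 ± 0.24 and 1.58 ± 0.24.

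Nutf2, which brings Ran back into the nucleus, also rose: it was at 29.04 and 19.6 CPM in wild type, 68.1 and 64.7 in premalignant, and 53.3 and 67.4 in malignant cells (log2 1.45 ± 0.23 and 1.31 ± 0.23, edgeR FDR 0.00741 and 0.0063). The 2 related genes that fell in malignant against wild type cells were Ranbp10 and Ranbp17. Ranbp10 was at 83.5 and 112 CPM, 60.8 and 56.5, and 49.5 and 45.1 (malignant log2 -1.04 ± 0.18, edgeR FDR 0.00574). It was also the 1 related gene that fell in premalignant cells (log2 -0.73 ± 0.18, edgeR FDR 0.0259), a call lost without wild type replicate 2 or either premalignant library (edgeR FDR 0.123 to 0.190). Ranbp17, an importin β relative, was scarce, at 1.65 and 1.27 CPM in wild type, 4.17 and 3.65 in premalignant, and 0.23 and 0.717 in malignant cells. It was called lower in malignant than in premalignant cells, at log2 -3.08 ± 0.59 (edgeR FDR 0.0571), and that call was lost without either wild type or either premalignant library, at an edgeR FDR of 0.152 to 0.381. Against wild type its malignant level was called lower too (log2 -1.67 ± 0.57, edgeR FDR 0.0566), and that call was lost without the same libraries, at an edgeR FDR of 0.109 to 0.201. Of the 14 messenger RNA export genes 7 rose in malignant cells, and the 4 genes of the SUMO pathway at the pore, between log2 -0.16 and 0.44, were not called.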

How the data were processed

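Processed files of 6 RNA-seq libraries were used, 2 for each of 3 stages, grouped by the sample labels. Poly(A) libraries (TruSeq) were read as 50-base single ends, aligned with TopHat v2.0.8b and counted per gene with HTSeq by the authors, and the deposited values are raw counts. The submitters' processing notes name mm9, CASAVA 1.8.2 and Bowtie. Whether counting used strand, and the annotation release, are not given in the sources used here. The kit does not mark strand, so overlapping genes on opposite strands cannot be told apart. Tables of the authors' own comparisons, which hold mean levels, fold changes and p-values of pairs of stages from DESeq, were not used.

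Symbols came from GENCODE vM1 (37205 of the identifiers matched, 786 did not). Counts were filtered with filterByExpr, scaled by TMM and fitted with edgeR 4.0.16 (R 4.3.3) in one model of all 6 libraries with stage as its term. A call needed an FDR (Benjamini-Hochberg) no higher than 0.1 and a log2 fold change of 0.5 or more in either direction. Total counts of 30031100 to 53453055 set the precision of each library, and with 2 libraries a stage the p-values rest on a spread shared across genes. CPM per kilobase divides by the union of a gene's exons. Windows of 50 bases in exons were searched for exact copies elsewhere in NCBIM37. Promoter windows came from RefSeq, GRCm38.p6, and were matched by symbol, with coordinates of that build. Alternatives were DESeq2 1.42.0, other scalings and filters, other thresholds, a replicate block, and leaving out each library. The fits were tested on simulated data.

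The members and the list of related genes were chosen with earlier results of these data known. Genes named with their values are the 4 of the Ran cycle, in every other role the 2 with the largest and the 1 with the smallest absolute log2 fold change between malignant and wild type cells, every member called lower or called between malignant and premalignant cells, and from the related list the genes that fell and the 5 with the largest change. Kpna2, Kpna4, Kpnb1, Ipo7, Cse1l, Xpo1, Xpo5, Xpo7, Nup50, Nup85, Nup93, Nup107, Nup133, Ranbp2, the full Ipo11 entry and Ipo13 were named after their values were seen.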

Additional observations from a re-analysis of the deposited data

How the results depend on the processing

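Over the 49 tested members and the related genes named, 2614 of 2805 values over genes, comparisons and settings kept their side of the threshold, 161 lost a call and 30 gained one. No called change turned its sign in these alternatives. Differences that were not called did so in 61 of 935 values between malignant and premalignant cells, 10 in malignant and 2 in premalignant against wild type cells. Settings that changed only the threshold for a call kept the fold change, so their values among the 935 could not turn. Ranbp1 went from 0.14 to -0.27 between malignant and premalignant cells without malignant replicate 2, and Rangap1 from -0.03 to 0.34 without malignant replicate 1. Over the libraries left out in turn, between 22 and 38 members were called higher in premalignant against wild type, between 33 and 39 in malignant against wild type, and between 0 and 2 in malignant against premalignant cells. Those called lower ranged from 0 to 1, 0 to 1 and 0 to 2 in the same order, and the median log2 fold change of members between malignant and premalignant cells from -0.12 to 0.12, the lowest without malignant replicate 2. With a minimum absolute log2 fold change of 1, 20, 21 and 0 members were called higher in these 3 comparisons. DESeq2 called 2 members higher in malignant against premalignant cells, and without the filter on low counts 2 were called higher and 1 lower. Upper-quartile scaling, which shifts the median of all genes by -0.17 in malignant against wild type cells, left 33 members called higher in each comparison with wild type. The causes of these changes were not tested.

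The labels number the replicates 1 and 2 in each stage without saying that a number marks a shared animal, litter or day. Deviations from the stage means of same-numbered libraries correlated at 0.51 between wild type and premalignant, 0.19 between wild type and malignant and 0.26 between premalignant and malignant libraries. With the replicate number as a block the members called higher and lower were 35 and 1 in premalignant against wild type, 1 and 0 in malignant against premalignant, and 37 and 1 in malignant against wild type cells, and the medians were 0.89, 0.04 and 0.90.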
